A study of Mus musculus with 10 samples.

Results

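The SUN and nesprin genes of the LINC complex, which links the nucleoskeleton to the cytoskeleton, were read in the germ cell transcriptomes of GRTH knock-in (KI) and wild-type (WT) mice. The members were the genes of the deposited table with the symbols Sun1, Sun2, Sun3, Sun5, Spag4, Syne1, Syne2 and Syne3, and all 8 were found among its 15507 genes. GRTH, also named DDX25, is a testis-specific RNA helicase that gonadotropin regulates, and Ddx25 is its mouse gene. Homozygous KI mice bear the human GRTH gene with an arginine-to-histidine missense mutation, and WT mice carry the normal mouse gene. Germ cells were isolated from the testes of 5 mice of each genotype, all 45 days old, and poly(A) RNA from each mouse gave 1 library. The preparation pools spermatogonia, spermatocytes and spermatids of each testis, so in these bulk samples fewer cells of a type and less RNA per cell cannot be told apart.

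In LINC complexes, SUN proteins span the inner nuclear membrane and bind, in the space between the membranes, the KASH domain of nesprins in the outer membrane. Nesprins in turn reach actin, microtubule motors or intermediate filaments. SUN1 and SUN2 are made in many tissues, and in meiosis SUN1 holds telomeres at the envelope so that homologous chromosomes can pair. SUN3, SUN5 and SPAG4 (also named SUN4) are made mainly in the testis and serve spermatids, in which the nucleus is reshaped along the manchette, a skirt of microtubules, and the tail is fixed to the head.

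Libraries held 13323024 to 16422347 reads on genes in WT and 12722086 to 15500582 in KI, and the 8 members had between 69 and 5839 reads in each library. The targeted gene Ddx25 lay between 5198 and 11101 normalized counts in WT, between 146 and 194 in KI libraries 1 to 3, and at 2.88 and 1.84 in KI libraries 4 and 5, from 3 and 2 reads. Its log2 fold change was −7.84 (SE 1.03, limma, adjusted p = 5.63e-05), and the difference between genotypes was larger in libraries 4 and 5 than in libraries 1 to 3 (interaction −6.25 on the log2 scale, adjusted p = 1.12e-10). KI mice bear the human gene and reads were aligned to the mouse genome, so these counts need not show the level of the human transcript. The paper describes KI mice as lacking the phosphorylated form of GRTH. Libraries 1 to 3 and libraries 4 and 5 of both genotypes also stand apart in the read quality that the sequencing summary of the study lists, so results below are given within each set where they part. A normalized count is the number of reads of a gene divided by the size factor of its library, and a log2 fold change is the difference, KI minus WT, of the mean log2(normalized count + 1). A gene passed the test at a Benjamini-Hochberg adjusted p under 0.05 over the 15389 genes tested, and a fold change of at least 1.5 was set as a second threshold.

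All 8 members passed the filter on low counts, with mean levels at the 35.9 to 91.0 percentile of the genes tested. Spag4 and Sun3 were lower in KI and passed the test, no member was higher and passed it, and Sun3 alone also passed the fold threshold, in the direction in which 8.22% of all genes passed both. Over all genes tested 13.3% were lower and 9.65% higher at the same adjusted p, and 14.4% passed both thresholds in either direction. When libraries were scaled to their totals these shares became 7.92% lower and 32.6% higher. The median log2 fold change was 0.07 over the members and 0.03 over all genes. At an unadjusted p under 0.05, 1 member, Syne2, was higher. No share of all genes is given for counts at an unadjusted p, here or below, so these have no background. With edgeR or with DESeq2 0 members were higher at the adjusted threshold, and each gave 2 lower members. Past both thresholds edgeR with TMM called 950 of all genes higher and 1293 lower, and DESeq2 called 1018 and 1291. Of the members Sun3 alone was past both in these fits, at −0.60 in each. No share of all genes at the adjusted p alone is given for these tools, so their counts at that threshold, here and below, have no matching background.

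Among the SUN genes of spermatids, Spag4 encodes the SUN domain protein of the spermatid envelope that faces the manchette. The gene lies on chromosome 2 (mm10, 156065213 to 156069499, plus strand). Sequence before the start sites is shown for the 3 spermatid SUN genes and, as a widely expressed gene, Sun1, because the first group was contrasted with the second throughout. CREM, the cAMP response element modulator, is a known activator of many spermatid genes and binds the element TGACGTCA, and TGACG is its core. The lines give the 120 bases just before the annotated start in RefSeq GRCm38.p6, 5′ to 3′ on the strand of the gene, with matches in capitals.
Spag4, chr2:156065093-156065212, plus strand: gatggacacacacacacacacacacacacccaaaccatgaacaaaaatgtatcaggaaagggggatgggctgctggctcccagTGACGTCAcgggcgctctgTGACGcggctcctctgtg
Sun3, chr11:9048992-9049111, minus strand: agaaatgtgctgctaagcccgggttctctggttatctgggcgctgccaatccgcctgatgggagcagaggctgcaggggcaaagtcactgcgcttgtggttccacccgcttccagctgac
Sun5, chr2:153871085-153871204, minus strand: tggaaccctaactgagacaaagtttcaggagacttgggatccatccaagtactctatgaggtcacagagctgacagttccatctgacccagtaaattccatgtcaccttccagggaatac
Sun1, chr5:139200517-139200636, plus strand: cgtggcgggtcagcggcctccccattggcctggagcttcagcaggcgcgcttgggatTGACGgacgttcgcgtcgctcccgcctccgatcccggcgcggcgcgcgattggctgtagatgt
RefSeq windows were matched for 8 of 8 members, 12 windows in all, and 250 bases before each start were searched on both strands. Spag4 was the 1 member with the full element TGACGTCA, which begins 37 bases before the start and occurs in 1.55% of all 32851 windows. It held 3 matches to TGACG, of which 2 lie inside the full element, and Sun1 held 2, against 17.8% of all windows with at least 1. The other 6 members held none in these windows. A match describes the letters of a window and does not show binding.

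Normalized counts of Spag4 were 2704, 2925, 3099, 3053 and 2776 in WT libraries 1 to 5. They were 2123, 2329, 2392, 2104 and 1471 in KI libraries 1 to 5. Every KI library lay below every WT library, and KI library 5 was the lowest. Spag4 was the 1 member whose genotypes did not overlap with KI lower, as was the case for 10.9% of all genes. WT averaged 2911 ± 171 and KI 2084 ± 365 (SD, n = 5 each). Spag4 thus fell by 0.50 on the log2 scale (SE 0.12, 95% interval −0.76 to −0.25, limma, adjusted p = 0.00674), to 71.6% of the WT mean. The log2 fold change was −0.35 within libraries 1 to 3 (adjusted p = 0.00280) and −0.73 within libraries 4 and 5 (adjusted p = 0.0172).

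Sun3 encodes a SUN protein found at the spermatid nucleus where the manchette attaches, and it lies on chromosome 11 (9016054 to 9048991, minus strand). Normalized counts were 1043, 1124, 965, 750 and 760 in WT libraries 1 to 5. They were 701, 670, 757, 528 and 413 in KI libraries 1 to 5. The genotypes overlapped by 1 library of each, since KI library 3 lay above WT library 4, but in 5 of 5 same-numbered pairs the KI library was the lower. The labels number the mice within each genotype and do not state that same-numbered mice belong together. Pairs and blocks by number, here and below, are thus an assumption. Libraries 4 and 5 were the lowest of each genotype. WT averaged 928 ± 168 and KI 614 ± 140 (SD, n = 5 each), and Sun3 fell by 0.61 on the log2 scale (SE 0.16, 95% interval −0.96 to −0.26, limma, adjusted p = 0.0136). The values within libraries 1 to 3 and within libraries 4 and 5 were −0.56 (adjusted p = 1.23e-04) and −0.69 (adjusted p = 0.0180). Exons of Sun3 share 123 bp, 9.47% of their length, with the exons of Gm11992 on the opposite strand, and nothing states that reads were counted by strand. Gm11992 had 1236 normalized counts in WT and 1184 in KI on average (log2 fold change −0.07, adjusted p = 0.677).

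**Figure D1:**
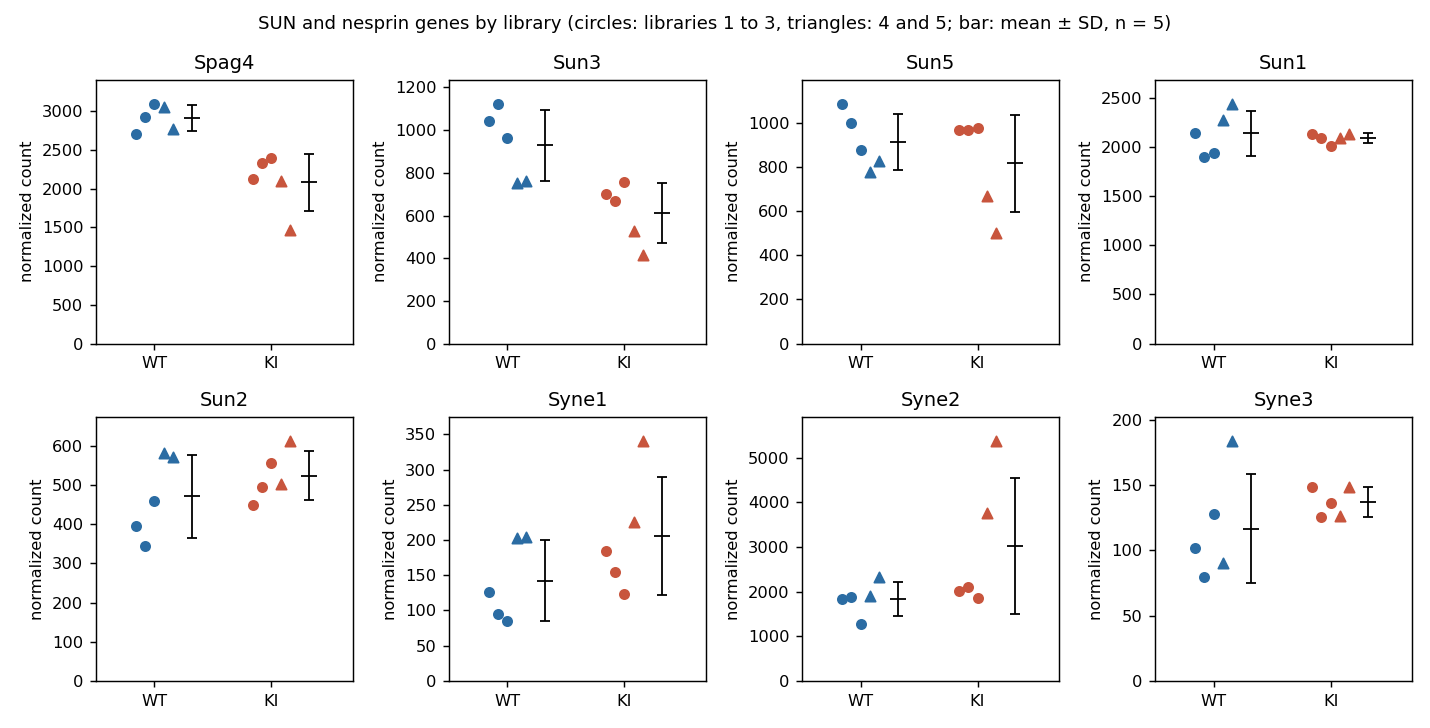
Normalized count of each member (vertical axes from 0, a scale for each gene) in the 5 WT (blue) and 5 KI (red) libraries. Circles are libraries 1 to 3, triangles are libraries 4 and 5, and bars are mean ± SD. The genotypes of Spag4 do not overlap, Sun3 overlaps by 1 library of each, and KI libraries 4 and 5 of Syne2 stand at 3750 and 5372 above all others.

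Sun5 encodes the SUN protein of the coupling apparatus between sperm head and tail, and it lies on chromosome 2 (153856188 to 153871084, minus strand). Normalized counts were 1086, 1000, 878, 776 and 828 in WT libraries 1 to 5. They were 968, 968, 975, 667 and 501 in KI libraries 1 to 5. KI libraries 1 to 3 lay within the WT range, and KI libraries 4 and 5 lay below it. The WT mean of 914 ± 127 and the KI mean of 816 ± 219 (SD, n = 5 each) differed by less than the spread between libraries (log2 fold change −0.20, SE 0.17, 95% interval −0.57 to 0.17, limma, adjusted p = 0.455). The value was −0.02 within libraries 1 to 3 (adjusted p = 0.885) and −0.47 within libraries 4 and 5 (adjusted p = 0.0983), and with library totals it turned to 0.03. The interaction of genotype with these library sets was −0.45 on the log2 scale (95% interval −0.82 to −0.08, adjusted p = 0.215).

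Spermatid markers were set beside these genes. Over all genes tested 13.3% were lower and 9.65% higher. All 7 markers of elongating spermatids, the protamines and transition proteins among them, were lower in KI and passed the test (median log2 fold change −2.27). Their summed normalized counts were 317246 to 385208 in WT libraries 1 to 3 and 209992 to 220173 in WT libraries 4 and 5. In KI the sums were 56247 to 63883 in libraries 1 to 3 and 31788 to 47942 in libraries 4 and 5. For Spag4, libraries 4 and 5 averaged 1.00 times libraries 1 to 3 in WT and 0.784 times in KI. The same values were 0.723 in WT and 0.663 in KI for Sun3, and 0.812 and 0.602 for Sun5. Sun5 in KI libraries 1 to 3 lay within its WT range. Of 8 markers of round spermatids 4 were lower and 0 higher (median −0.50), with sums of 26277 to 30831 in WT and 14074 to 22521 in KI. The sum of the round spermatid markers was lowest in KI libraries 4 and 5 (14074 to 19030), the libraries in which Spag4, Sun3 and Sun5 were lowest. This was not particular to spermatid markers. Spermatocyte sums were also lowest there, at 17223 to 18146 against 20927 to 23064 in KI libraries 1 to 3. Sertoli cell sums in KI were 6253 to 7061 in libraries 4 and 5 and 9157 to 10693 in libraries 1 to 3. Endothelial sums, given below, went the other way. No marker of either list was at 0 in all libraries, and the part of spermatid number in the values of Spag4 and Sun3 was not tested. When libraries were scaled to their totals, Spag4 and Sun3 stayed below 0 but no longer passed (−0.27, adjusted p = 0.1003 and −0.38, adjusted p = 0.0907), and the median of all genes shifted from 0.03 to 0.25.

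Of the widely expressed SUN genes, Sun1 lies on chromosome 5 (139200637 to 139249839, plus strand). Normalized counts were 2143, 1902, 1942, 2280 and 2444 in WT libraries 1 to 5. They were 2133, 2098, 2010, 2095 and 2135 in KI libraries 1 to 5. All KI libraries lay within the WT range. WT averaged 2142 ± 228 and KI 2094 ± 50.8 (SD, n = 5 each), a log2 difference of −0.03 (SE 0.09, 95% interval −0.21 to 0.16, limma, adjusted p = 0.868) that turned to 0.20 with library totals, to 0.07 with upper quartiles, to 0.06 within libraries 1 to 3 and to 0.02 without WT library 5. The antisense gene 4930520M14Rik shares 302 bp with exons of Sun1.

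Sun2, the other widely expressed SUN gene, lies on chromosome 15 (79724068 to 79742536, minus strand). Normalized counts were 396, 346, 459, 582 and 573 in WT libraries 1 to 5. They were 450, 495, 557, 503 and 613 in KI libraries 1 to 5. The genotypes overlapped widely, and WT libraries 1 and 2 were the lowest. WT averaged 471 ± 105 and KI 524 ± 62.5 (SD, n = 5 each) (log2 fold change 0.17, SE 0.14, 95% interval −0.13 to 0.48, limma, adjusted p = 0.436). Within libraries 1 to 3 the value was 0.33 (adjusted p = 0.0421) and within libraries 4 and 5 it was −0.06 (adjusted p = 0.869). Exons of Sun2 share 147 bp with the antisense gene Gm16575.

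Markers of spermatocytes, in which SUN1 serves meiosis, and of spermatogonia were set beside these values. Over all genes tested 13.3% were lower and 9.65% higher. Of 8 spermatocyte markers 1 was lower and 0 higher (median log2 fold change −0.11), and their sums were 19363 to 26662 in WT and 17223 to 23064 in KI. Of 7 spermatogonium markers 1 was lower and 0 higher (median 0.28), with sums of 1513 to 2158 in WT and 1759 to 2105 in KI.

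The contrast of spermatid and widely expressed SUN genes was then taken within each library, as a ratio of normalized counts that no scaling of libraries can change. Each of 6 ratios was tested by exact permutation on both sides over 252 arrangements of the libraries, and 0.00794 is the smallest p that these can give. The ratio of Spag4 to Sun2 was 6.82, 8.46, 6.75, 5.25 and 4.84 in WT libraries 1 to 5 and 4.71, 4.70, 4.29, 4.18 and 2.40 in KI libraries 1 to 5. All KI ratios lay below all WT ratios, and the mean log2 ratio fell by 0.67 (exact permutation p = 0.00794, adjusted over 6 ratios 0.0476). The ratio of Spag4 to Sun1 was 1.14 to 1.60 in WT and 0.689 to 1.19 in KI, and its mean log2 value fell by 0.47 (exact permutation p = 0.0159, adjusted 0.0476). With libraries paired by number both were lower in 5 of 5 pairs, but 5 pairs cannot give an exact sign-flip p below 0.0625 and the adjusted p of both was 0.075. Leaving out 1 library raised the adjusted p to as much as 0.0952 in both.

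For Sun3 the same ratios were lower in KI in 5 of 5 pairs but did not pass. The ratio to Sun1 was 0.311 to 0.591 in WT and 0.193 to 0.377 in KI (log2 difference −0.58, exact permutation p = 0.0635, adjusted 0.119). The ratio to Sun2 was 1.29 to 3.25 in WT and 0.674 to 1.56 in KI (log2 difference −0.78, exact permutation p = 0.0794, adjusted 0.119). In both genotypes the Sun3 ratios were lowest in libraries 4 and 5. For Sun5 the log2 differences were −0.17 to Sun1 (exact permutation p = 0.460, adjusted 0.460) and −0.37 to Sun2 (exact permutation p = 0.294, adjusted 0.352), with ranges that overlapped.

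**Figure D2:**
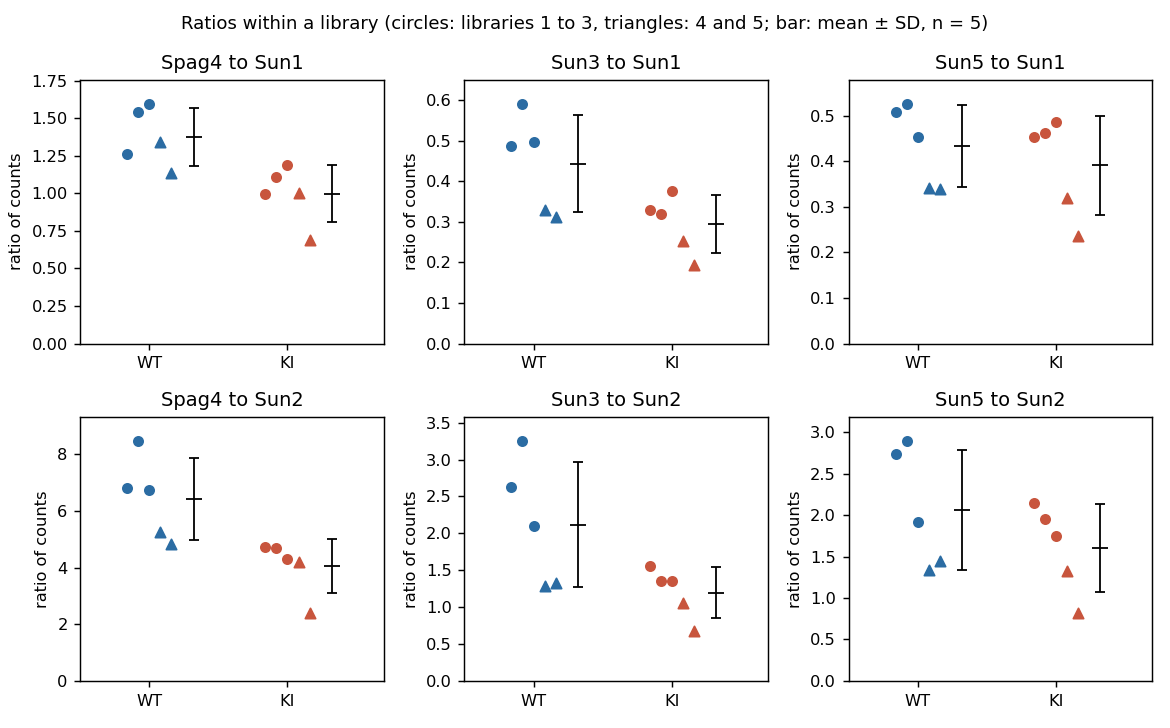
Ratio of each spermatid SUN gene to each widely expressed one within a library (vertical axes from 0) in the 5 WT (blue) and 5 KI (red) libraries. Circles are libraries 1 to 3, triangles are libraries 4 and 5, and bars are mean ± SD. For Spag4 to Sun2 the WT ratios of 4.84 to 8.46 lie above the KI ratios of 2.40 to 4.71, and the other 5 ratios overlap.

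The nesprin genes were next. Syne2 encodes nesprin-2, whose giant form binds actin, and it lies on chromosome 12 (75818318 to 76110928, plus strand). Normalized counts were 1844, 1873, 1265, 1898 and 2329 in WT libraries 1 to 5. They were 2011, 2093, 1847, 3750 and 5372 in KI libraries 1 to 5. KI libraries 1 to 3 lay inside the WT range and KI libraries 4 and 5 above it, and in 5 of 5 same-numbered pairs the KI library was the higher. WT averaged 1842 ± 379 and KI 3015 ± 1526 (SD, n = 5 each), and the log2 fold change of 0.60 (SE 0.25, 95% interval 0.06 to 1.15) did not pass (limma, adjusted p = 0.104). With the library number as a block the adjusted p of Syne2 was 0.00540, and with a term for the 2 library sets it was 0.00493. The value was 0.28 within libraries 1 to 3 (adjusted p = 0.0894) and 1.09 within libraries 4 and 5 (adjusted p = 0.00194), and the interaction was 0.82 on the log2 scale (95% interval 0.33 to 1.31, adjusted p = 0.106).

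Syne1 encodes nesprin-1, the related giant nesprin known from muscle and neurons, and lies on chromosome 10 (5020196 to 5550692, minus strand). Normalized counts were 126, 94.8, 84.5, 203 and 204 in WT libraries 1 to 5. They were 185, 155, 124, 225 and 340 in KI libraries 1 to 5. The genotypes overlapped, but libraries 4 and 5 stood above libraries 1 to 3 in each, at 2.00 times their mean in WT and 1.83 times in KI, and in 5 of 5 same-numbered pairs the KI library was the higher. WT averaged 142 ± 57.8 and KI 206 ± 84.1 (SD, n = 5 each), with a log2 fold change of 0.54 (SE 0.28, 95% interval −0.07 to 1.14, limma, adjusted p = 0.197). With the library number as a block the adjusted p of Syne1 was 0.00320, and with the term for library sets it was 0.00965. The value was 0.60 within libraries 1 to 3 (adjusted p = 0.0196) and 0.44 within libraries 4 and 5 (adjusted p = 0.222).

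Syne3 encodes nesprin-3, which binds plectin and so intermediate filaments, and lies on chromosome 12 (104929933 to 105009809, minus strand). Normalized counts were 101, 79.8, 128, 90.3 and 184 in WT libraries 1 to 5. They were 149, 125, 136, 126 and 148 in KI libraries 1 to 5. The KI libraries lay close together within the WT range, and WT library 5 was the highest of all. WT averaged 117 ± 41.5 and KI 137 ± 11.4 (SD, n = 5 each) (log2 fold change 0.29, SE 0.19, 95% interval −0.12 to 0.70, limma, adjusted p = 0.310). Without WT library 5 the value was 0.47 (adjusted p = 0.0409).

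With the block 4 of the 8 members passed, Spag4 and Sun3 lower and Syne1 and Syne2 higher, when 17.4% of all genes passed lower, 14.7% higher and 32% in either direction, against 22.9% without it. With the term for library sets 4 members passed (31.3% of all genes). Within libraries 1 to 3 alone 4 members passed (31.3% of all genes), Spag4, Sun3, Sun2 and Syne1, and within libraries 4 and 5 alone 3 passed (11.1% of all genes), Spag4, Sun3 and Syne2. With library totals Syne2 (0.83, adjusted p = 0.0164) and Syne1 (0.76, adjusted p = 0.0484) passed, when 32.6% of all genes passed higher and 7.92% lower. The interaction of genotype with library sets passed for 0 of 8 members with limma and for 0.247% of all genes, and at an unadjusted p under 0.05 for 2 members, Sun5 and Syne2. In the plot of genotype differences by library set, the values of Spag4, Sun3, Sun5, Syne1, Syne2 and Syne3 have the same sign in both sets.

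**Figure D3:**
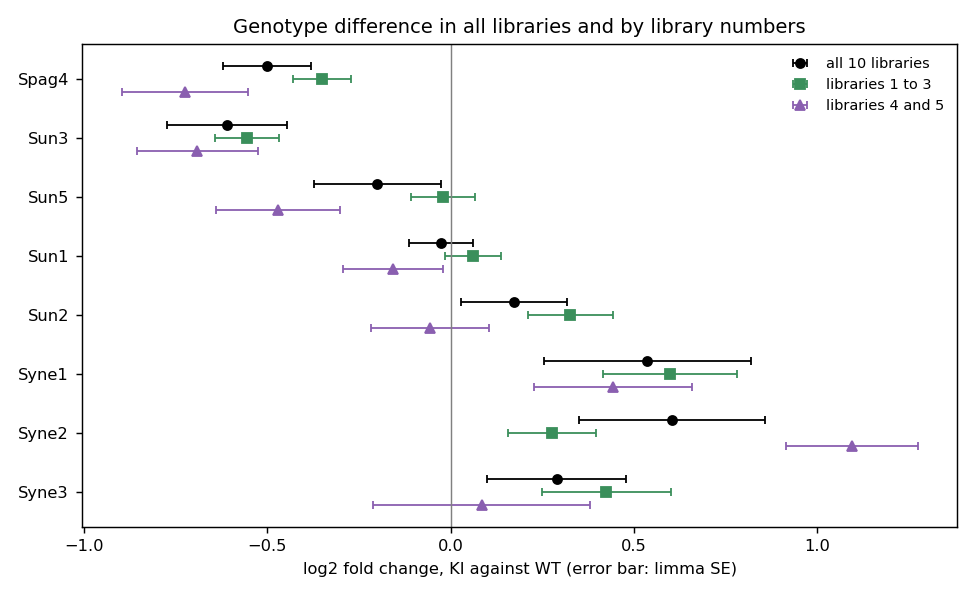
Log2 fold change of each member, KI against WT (horizontal axis), in all 10 libraries (black circles), in libraries 1 to 3 (green squares) and in libraries 4 and 5 (purple triangles). Error bars are the SE from limma. Spag4 and Sun3 lie below 0 in each set, Sun1 and Sun2 lie on different sides of 0 in the 2 sets, and Syne2 lies at 0.28 and 1.09.

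Markers of cells other than germ cells were counted as well, and the lists differed. Over all genes tested 9.65% were higher and 13.3% lower. Of 9 macrophage markers 6 were higher and 0 lower (median log2 fold change 0.69), with sums of 788 to 1032 in WT and 1190 to 1559 in KI. Of 5 endothelial markers 2 were higher and 0 lower (median 0.46). Their sums were 265 to 365 in WT, 424 to 456 in KI libraries 1 to 3 and 607 to 805 in KI libraries 4 and 5. The interaction with library sets was 0.91 on the log2 scale for Vwf. It was below 0 for Pecam1 (−0.96), Kdr (−0.36), Cdh5 (−0.35) and Tek (−0.27), and none of these passed at the adjusted threshold. Of 7 Leydig cell markers 4 were higher and 0 lower (median 0.69), with sums of 10291 to 18066 in WT and 14779 to 25692 in KI. Of 5 peritubular myoid markers tested 2 were higher and 0 lower (median −0.07). The myoid sums, which also hold the untested marker Cnn1, were 163 to 235 in WT and 212 to 266 in KI. Of 8 Sertoli cell markers 1 was higher and 0 lower (median 0.13), with sums of 6098 to 9998 in WT and 6253 to 10693 in KI. No marker of these lists was at 0 in all libraries. The part of these cells in the nesprin values was not tested.

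Levels were compared between genes only per length, as normalized counts per kb of the longest coding transcript. In WT, Spag4 was first at 1977 ± 116 (SD, n = 5) per kb. Sun5 at 790 ± 110 (SD, n = 5) and Sun3 at 770 ± 139 (SD, n = 5) followed, with ranges that overlapped each other. Sun1 came next at 518 ± 55.2 (SD, n = 5), below every WT library of the 3 spermatid genes. Sun2 at 124 ± 27.6 (SD, n = 5) and Syne2 at 84.9 ± 17.5 (SD, n = 5) overlapped, Syne3 stood at 22.2 ± 7.89 (SD, n = 5) and Syne1 at 5.10 ± 2.07 (SD, n = 5). In KI the level of Spag4 was 1415 ± 248 (SD, n = 5) per kb, that of Sun3 509 ± 116 (SD, n = 5) and that of Sun1 507 ± 12.3 (SD, n = 5). Per kb of all annotated exons the order of the first 3 differed, with Sun5 at 742, Sun3 at 715 and Spag4 at 603 in WT, since the annotated exons of Spag4 cover 4831 bp and its longest coding transcript 1473 bp. Syne1 and Syne2 have short isoforms that the length of 1 transcript does not reflect.

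**Figure D4:**
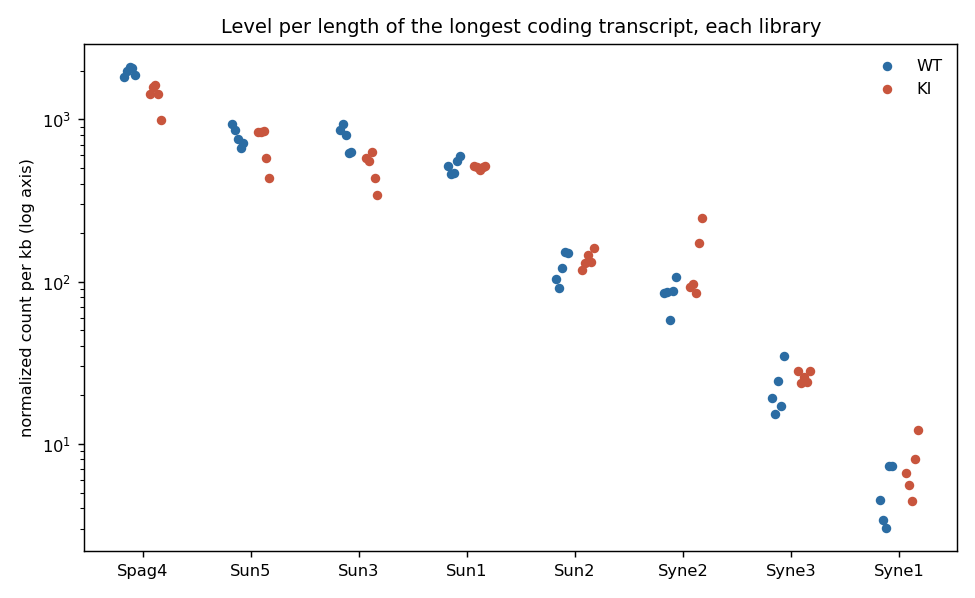
Normalized count per kb of the longest coding transcript (vertical log axis) of each member in each WT (blue) and KI (red) library, ordered by the WT mean. Spag4 is highest at 1836 to 2104 per kb in WT, and Syne1 is lowest at 3.03 to 7.32 per kb in WT.

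The other genes with which SUN proteins and nesprins work were counted by list. Of 18 LINC partners and nuclear envelope genes 2 were higher, 2 were lower and the median log2 fold change was 0.04. These counts are near the shares over all genes tested, 9.65% higher and 13.3% lower. Tor1aip2, which encodes a torsin-activating membrane protein (log2 fold change 0.33, adjusted p = 0.00562), and Lmnb2, which encodes lamin B2 (0.40, adjusted p = 0.0111), were higher. Nemp1, an inner nuclear membrane protein gene (−0.82, adjusted p = 3.92e-05), and Tor1aip1, which encodes the torsin activator LAP1 of the inner membrane (−0.58, adjusted p = 0.00645), were lower. The lamin A/C gene Lmna (0.10, adjusted p = 0.632) and the emerin gene Emd (0.09, adjusted p = 0.695) did not pass. Ccdc155, the symbol in the table for KASH5, which pairs with SUN1 at meiotic telomeres, averaged 1308 ± 130 normalized counts in WT and 1499 ± 167 in KI (SD, n = 5 each) (log2 fold change 0.20, adjusted p = 0.185). Of 7 genes of meiotic telomere attachment, Ccdc155 among them, 0 passed in either direction with limma at the adjusted threshold, 0 at an unadjusted p under 0.05, 0 with edgeR and 0 with DESeq2, and their median was −0.08.

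Of 12 manchette and nucleus shaping genes 3 were lower and 0 higher, with a median of −0.03. Over all genes tested 13.3% were lower, 9.65% were higher and 8.22% were lower past both thresholds. Hook1, which encodes a manchette-binding protein (−0.89, adjusted p = 4.33e-05), was the 1 of them past the fold threshold, and Spag16, an axoneme and manchette protein gene (−0.34, adjusted p = 0.0134), was lower by less. At an unadjusted p under 0.05, 1 gene of this list was higher with limma, and 0 were higher with edgeR or DESeq2 at the adjusted threshold. Of 8 head to tail coupling genes, the setting in which SUN5 acts, 6 were lower and 0 higher, 5 of them past the fold threshold, and the median was −0.90. Odf1 of the outer dense fibers fell by 2.55 on the log2 scale (adjusted p = 1.39e-08), Oaz3, the testis antizyme gene, fell by 2.50 (adjusted p = 2.64e-07), and Pmfbp1, a coupling apparatus gene, fell by 1.24 (adjusted p = 1.48e-06). Odf1 is also in the list of elongating spermatid markers above. No gene of the coupling list was higher with limma at an unadjusted p under 0.05 or with edgeR or DESeq2 at the adjusted threshold. Sun5 itself, at −0.20, did not pass.

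**Figure D5:**
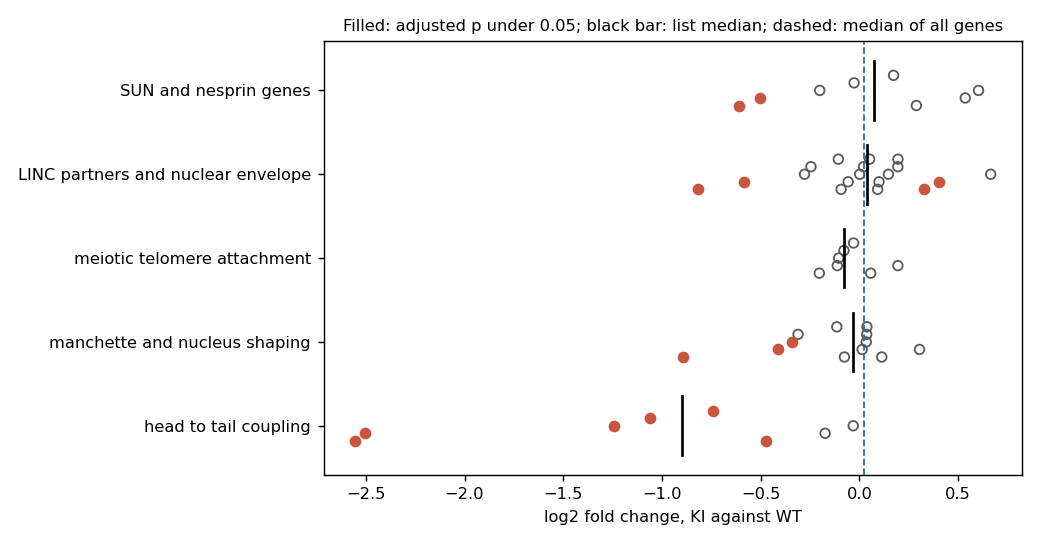
Log2 fold change, KI against WT (horizontal axis), of each tested gene of the members and of the 4 lists (rows). Filled points passed at an adjusted p under 0.05, black bars are list medians and the dashed line is the median of all genes. The coupling list has its median at −0.90, and the members have theirs at 0.07.

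For each member the 3 genes of most similar pattern over the 10 libraries were found by Pearson correlation of log2(normalized count + 1), among tested genes that averaged 100 normalized counts or more. The libraries share genotype and the 2 library sets, so these values describe likeness and no test was made. The highest values belonged to Sun3 with Spanxn4 (r = 0.989), Bbs5 (r = 0.986) and 1700020N15Rik (r = 0.985). Spag4 was most like Tsc22d4 (r = 0.985), 1700003F12Rik (r = 0.985) and Gsdmcl-ps (r = 0.983), and Sun5 most like 1700027F06Rik (r = 0.982), Dcun1d5 (r = 0.975) and Pdilt (r = 0.975). Syne2 was most like Wwc2 (r = 0.984), Sptb (r = 0.984) and Sfmbt2 (r = 0.982), and Syne1 most like Ttn (r = 0.953), Celsr2 (r = 0.945) and Ddx23 (r = 0.942). Sun1 was nearest to Fn1 (r = 0.944), Gm14151 (r = 0.924) and Rbpj (r = 0.863), and Sun2 to Sema5b (r = 0.949), Tmed9 (r = 0.939) and Glrx5 (r = 0.936). Syne3 was nearest to Adam17 (r = 0.929), Gaa (r = 0.916) and Zfp280b (r = 0.903).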

How the data were processed

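Germ cell RNA of 5 WT and 5 homozygous KI mice was sequenced as 1 library per mouse. The authors used STAR for alignment to mm10 and Partek for gene counts, divided the counts by DESeq2 size factors and deposited these normalized counts, a signal per gene and library. Dividing by the value of 1 read gave whole reads within 0.05 for values under 5000 reads, and these reads were used for edgeR and DESeq2. Every library column was assigned by its label, and 0 columns of values were left out.

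The test was limma (version 3.58.1, R 4.3.3) with a variance trend on log2(value + 1), with genotype as the only term, on 15389 genes kept by edgeR's filterByExpr (version 4.0.16). Adjustment was by Benjamini-Hochberg over those genes, and the call was an adjusted p under 0.05, alone or with a fold of at least 1.5. It was tested on simulated data. The 6 ratios were compared by exact permutation. Alternatives were other scalings, pseudocounts and filters, edgeR, DESeq2 (version 1.42.0), a replicate block, a term for libraries 1 to 3 against 4 and 5, each set alone, and each library left out. The interaction with library sets and the level per kb were added after seeing the data. The genes named are the 8 members, up to 3 passing genes per pathway list and direction with the largest change, and the 3 genes most like each member, except 1 manchette gene that is not reported here. Lmna, Emd, Ccdc155, Gm11992, the endothelial markers and Cnn1 were named after their values were seen. The library sets come from the read quality in the sequencing summary of the study.

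Same-numbered libraries were checked for pairing on deviations from genotype means, and correlated with r of 0.306, 0.105, 0.280, 0.216 and 0.462. WT library 3 had a higher r, 0.287, with a KI library of another number. The labels do not state a pairing. Members, gene lists and cell markers were chosen with earlier results of these data known. The Stop column lies 1 base past the RefSeq end in 71.8% of genes with the same start, so ends are printed 1 lower. Promoter windows are from RefSeq GRCm38.p6. The 5 mice of a genotype are the replicates, and a p-value covers the spread between their libraries.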

Additional observations from a re-analysis of the deposited data

Results flagged for a closer look

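The ratio of Spag4 to Sun2 in KI library 5 was 2.40, apart from the other KI libraries at 4.18 to 4.71. Its gap to the nearest library was 0.771 of the range of the KI group, above the critical value of 0.71 for 5 samples. Of the 28 groups checked in this way chance would mark about 1 in 20. Without KI library 5 the log2 difference of this ratio, KI minus WT, was −0.50 (exact permutation, adjusted p = 0.0952).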

How the results depend on the processing

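The fall of Spag4 and of Sun3 kept its direction under all alternatives run and passed the adjusted p under all but library totals (−0.27 and −0.38). Sun3, at −0.61, lay close to the fold threshold, which is 0.585 on the log2 scale. It fell short of that threshold with library totals, with upper quartiles (−0.52) and within libraries 1 to 3 (−0.56). The same held when WT library 1 (−0.56) or 2 (−0.54) or KI library 4 (−0.56) or 5 (−0.48) was left out. Leaving out 1 library gave −0.56 to −0.38 for Spag4 and −0.69 to −0.48 for Sun3, and 0.36 to 0.75 for Syne2, 0.33 to 0.70 for Syne1, 0.17 to 0.47 for Syne3, 0.07 to 0.26 for Sun2, −0.28 to −0.04 for Sun5 and −0.068 to 0.023 for Sun1, where WT library 5 decided the sign. Syne3 passed without that library (0.47). With library totals, which move the median of all genes to 0.25, Sun1 turned to 0.20 and Sun5 to 0.029, and Syne1 (0.76) and Syne2 (0.83) passed. Upper quartiles moved that median to 0.12 and Sun1 to 0.067. Within libraries 1 to 3 Sun1 was 0.061, Sun2 0.33 and Syne1 0.60. Within libraries 4 and 5 Sun2 was −0.057 and Syne2 1.09. With the replicate block and with the term for library sets Syne1 (0.54) and Syne2 (0.60) passed, and the block changed no other member's call. The block raised the genes higher in KI at the adjusted p alone from 1485 to 2256. With the block the log2 ratios of Spag4 to Sun1 (−0.47) and to Sun2 (−0.67) could not pass, since 5 pairs give no exact sign-flip p below 0.0625. Leaving out 1 library gave −0.54 to −0.35 for the ratio to Sun1 and −0.77 to −0.50 for that to Sun2. The adjusted exact permutation p was then 0.0476 to 0.0952. Genes past both thresholds numbered 944 higher and 1265 lower. They were 2145 and 789 with library totals, 1485 and 2044 with no fold threshold, and higher genes were 549 at a mean of at least 50, 471 within libraries 4 and 5 and 605 at an adjusted p under 0.01. Library totals gave 4 higher and 1 lower LINC partners and nuclear envelope genes, 2 higher telomere attachment genes, and 5 higher and 1 lower manchette genes. In that setting 32.6% of all genes were higher and 7.92% lower. The block gave 1 higher and 1 lower telomere attachment gene and 1 higher manchette gene. With it 14.7% of all genes were higher and 17.4% lower. The causes of these changes were not tested. Syne1 and Syne3, with as few as 70 and 69 reads in a library, are the members whose values counting error limits most.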
